A study of Mus musculus with 18 samples.

Results

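The adrenergic receptor genes *Adra1a*, *Adra1b*, *Adra1d*, *Adra2a*, *Adra2b*, *Adra2c* and *Adrb1* were followed in the spinal dorsal horn (DHSC) of formalin-injected mice. They were taken by symbol, as the rows of the count table whose Ensembl identifier carries a listed name, and they make up 7 of the 55573 rows. Other beta-adrenergic receptor genes were not analysed here, and the family below means these 7 genes.

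RNA-Seq counts were available for 18 samples of ipsilateral DHSC, 6 from males, 6 from F1/proestrus females and 6 from F2/metestrus females. All mice were C57BL/6J animals of 8 to 12 weeks, and all had received 2% formalin in the hind paw (8 µl for each 20 g of body weight) 2 h before dissection. F1 females had shown a short pause between the first and the second phase of the pain behavior and F2 females a long one, and each female was also chosen for its estrus stage, so behavior and stage cannot be told apart between the female groups. No group without formalin was analysed here. The tissue was cut from segments L3 to L5 under ketamine and xylazine in every group, and xylazine is itself an agonist of alpha2 receptors. The samples are bulk tissue, in which fewer cells of a type and less RNA per cell cannot be told apart.

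Adrenergic receptors are the G protein-coupled receptors of noradrenaline and adrenaline. Alpha1 receptors act through Gq and phospholipase C, alpha2 receptors through Gi/o, which lowers cyclic AMP, closes calcium channels and opens potassium channels, and beta receptors through Gs, which raises cyclic AMP. In the dorsal horn, noradrenaline is released by axons that descend from the brainstem, and alpha2 receptors on primary afferent terminals and spinal neurons are a known target of analgesic agonists such as clonidine.

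In GENCODE vM21 on GRCm38, all 7 genes are protein-coding. The alpha2 genes are each a single exon, *Adra2a* (ENSMUSG00000033717) at chr19:54044151-54048982, *Adra2b* (ENSMUSG00000058620) at chr2:127363208-127367221 and *Adra2c* (ENSMUSG00000045318) at chr5:35278319-35281763, all on the plus strand. The alpha1 genes are interrupted by introns, *Adra1a* (ENSMUSG00000045875) at chr14:66635251-66771168 on the plus strand, *Adra1b* (ENSMUSG00000050541) at chr11:43774606-43901210 and *Adra1d* (ENSMUSG00000027335) at chr2:131545850-131562283, both on the minus strand. *Adrb1* (ENSMUSG00000035283) lies at chr19:56722199-56733113 on the plus strand. *Adra1d* shares 147 exon bases with the antisense gene *Gm14285*, which had 13 to 33 counts per sample. Whether the counting used the strand is not stated, so reads over those bases cannot be told apart.

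The promoter windows of the 3 alpha2 genes are shown because their mRNA levels were the highest and the lowest of the family and because *Adra2a* and *Adra2c* varied together across samples, as described below. The windows are those of RefSeq on GRCm38.p6 and run from 250 bases before to 50 bases after the RefSeq start. That start lies 1108 bases downstream of the GENCODE gene start for *Adra2a* and 247 downstream for *Adra2c*, but 29 bases upstream for *Adra2b*. The *Adra2a* window thus lies inside the GENCODE exon, and the *Adra2c* window almost wholly so. Most of the *Adra2b* window lies before its gene. The windows lie at chr19:54045009-54045308, chr5:35278316-35278615 and chr2:127362929-127363228, all on the plus strand. Capitals mark a TATA box (TATAAA) and GC boxes (GGGCGG) found on either strand.
Adra2a: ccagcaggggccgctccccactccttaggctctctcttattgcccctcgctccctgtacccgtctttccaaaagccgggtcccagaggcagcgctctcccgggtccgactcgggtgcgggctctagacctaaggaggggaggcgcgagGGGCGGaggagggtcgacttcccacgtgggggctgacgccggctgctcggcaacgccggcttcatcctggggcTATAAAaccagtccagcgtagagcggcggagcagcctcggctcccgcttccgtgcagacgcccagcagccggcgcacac
Adra2c: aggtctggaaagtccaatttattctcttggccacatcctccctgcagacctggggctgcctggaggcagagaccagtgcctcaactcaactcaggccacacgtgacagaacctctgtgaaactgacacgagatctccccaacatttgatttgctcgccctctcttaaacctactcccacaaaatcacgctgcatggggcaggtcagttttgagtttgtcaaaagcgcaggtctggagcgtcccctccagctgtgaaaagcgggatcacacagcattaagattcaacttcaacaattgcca
Adra2b: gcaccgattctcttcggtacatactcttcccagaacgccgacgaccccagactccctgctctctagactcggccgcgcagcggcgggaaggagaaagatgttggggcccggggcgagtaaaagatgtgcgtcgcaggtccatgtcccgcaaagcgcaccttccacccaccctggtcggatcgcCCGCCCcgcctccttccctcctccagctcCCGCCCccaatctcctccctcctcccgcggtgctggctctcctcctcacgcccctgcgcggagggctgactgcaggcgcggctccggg

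The *Adra2a* window held 1 TATA box, which begins 29 bases before the RefSeq start, and 1 GC box, with 68.7% G and C. The *Adra2b* window held 2 GC boxes and no TATA box, with 68% G and C. Neither motif was found in the *Adra2c* window, in which G and C made up 51.3% of the bases, close to the median of 52.7% over all windows. Of all 32851 windows, 13.6% held the TATA box and 35.7% the GC box. The letters of the cAMP response element (TGACGTCA) and of the estrogen response element, read as GGTCA and its reverse complement with 3 bases between them, which 1.79% and 0.07% of all windows hold, were in none of the 6 windows available for the family. Those windows covered 5 of the 7 genes, and their motifs are matches of letters, not measured sites.

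Between 73590509 and 125724156 reads were counted in each sample, and all 7 genes passed the filter on low counts in every comparison. The libraries are numbered in the column names of the counts, in 2 series, 27 to 35 for replicates 1 to 3 and 188 to 196 for replicates 4 to 6, each with 3 samples of every group. All 9 dorsal horn neuron markers were detected. Levels are given in CPM, counts scaled by edgeR to a common library total after TMM normalization. Summed markers of sensory ganglion neurons stood at 512 CPM in F1/proestrus 5 and at 3.82 to 6.60 CPM in the other samples. The correlation and signaling results and part of the receptor tests are therefore also given without that sample. Receptor levels and shares are given with it only.

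The alpha2 genes *Adra2a* and *Adra2c* had the most mRNA of the family, *Adra1b* followed, and *Adra1a*, *Adrb1*, *Adra1d* and *Adra2b* were lower, per kilobase of exon. Levels between genes were compared as CPM per kilobase of exon, in means ± SD over the 18 samples. *Adra2a* had 9.31 ± 0.789 and *Adra2c* 9.10 ± 0.902 CPM per kilobase. These neighbors were not separated by this measure, since *Adra2a* was the higher in 11 of 18 samples, with a ratio of 0.926 to 1.12. *Adra1b* had 5.30 ± 0.373 CPM per kilobase, below *Adra2c* in 18 of 18 samples. *Adra1a* stood at 1.38 ± 0.190 and *Adrb1* at 1.16 ± 0.131 CPM per kilobase, with *Adra1a* higher in 15 of 18 samples and overlapping ranges. *Adra1d* had 0.628 ± 0.110 CPM per kilobase, and *Adra2b* came last with 0.137 ± 0.0478 CPM per kilobase, each lower than the gene before it in 18 of 18 samples.

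The family thus spanned a wide part of the range of protein-coding genes. Among the 16508 protein-coding genes tested, *Adra2a* lay at percentile 68.8, *Adra2c* at 68.3 and *Adra1b* at 55.3 of the level per kilobase. *Adra1a*, *Adrb1* and *Adra1d* lay at percentiles 29.4, 27.0 and 19.8, and *Adra2b* at 7.89. Per kilobase of coding sequence, *Adra2a* was above *Adra2c* in 18 of 18 samples, with a ratio of 1.28 to 1.55, so the order of these 2 genes rests on the length used. The distance of *Adra1a* from its neighbors rests on it as well. Per kilobase of coding sequence *Adra1b* was 1.11 to 1.79 times *Adra1a* (ratio of the means 1.35, higher in 18 of 18 samples). *Adra1a* was 1.94 to 4.48 times *Adrb1* (ratio of the means 3.06, higher in 18 of 18 samples). On that scale *Adra1d* was above *Adra2b* in 16 of 18 samples.

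Expressed as shares of the summed level per kilobase of the 7 genes, alpha2 genes made up 68.6% ± 1.92 (SD, n = 18), alpha1 genes 27.1% ± 2.05 and *Adrb1* 4.30% ± 0.384. The other beta receptor genes are not in this sum, so these are not shares of all adrenergic receptors. The alpha2 share was 68.4% ± 2.39 in F1/proestrus, 67.8% ± 1.35 in F2/metestrus and 69.5% ± 1.76 in males (n = 6 each). Its ranges overlapped between all groups, from 65.0% to 71.3%, from 66.3% to 69.5% and from 67.2% to 71.6%. Within the alpha2 genes, *Adra2a* and *Adra2c* contributed 34.4% ± 1.05 and 33.6% ± 1.54 of the sum, and *Adra2b* 0.507% ± 0.169 (n = 18). Within the alpha1 genes, *Adra1b* contributed 19.7% ± 1.14, *Adra1a* 5.12% ± 0.832 and *Adra1d* 2.34% ± 0.448. With coding length in place of exon length, the shares were 40.7% for *Adra2a*, 28.8% for *Adra2c*, 14.7% for *Adra1b* and 10.9% for *Adra1a*.

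**Figure D1:**
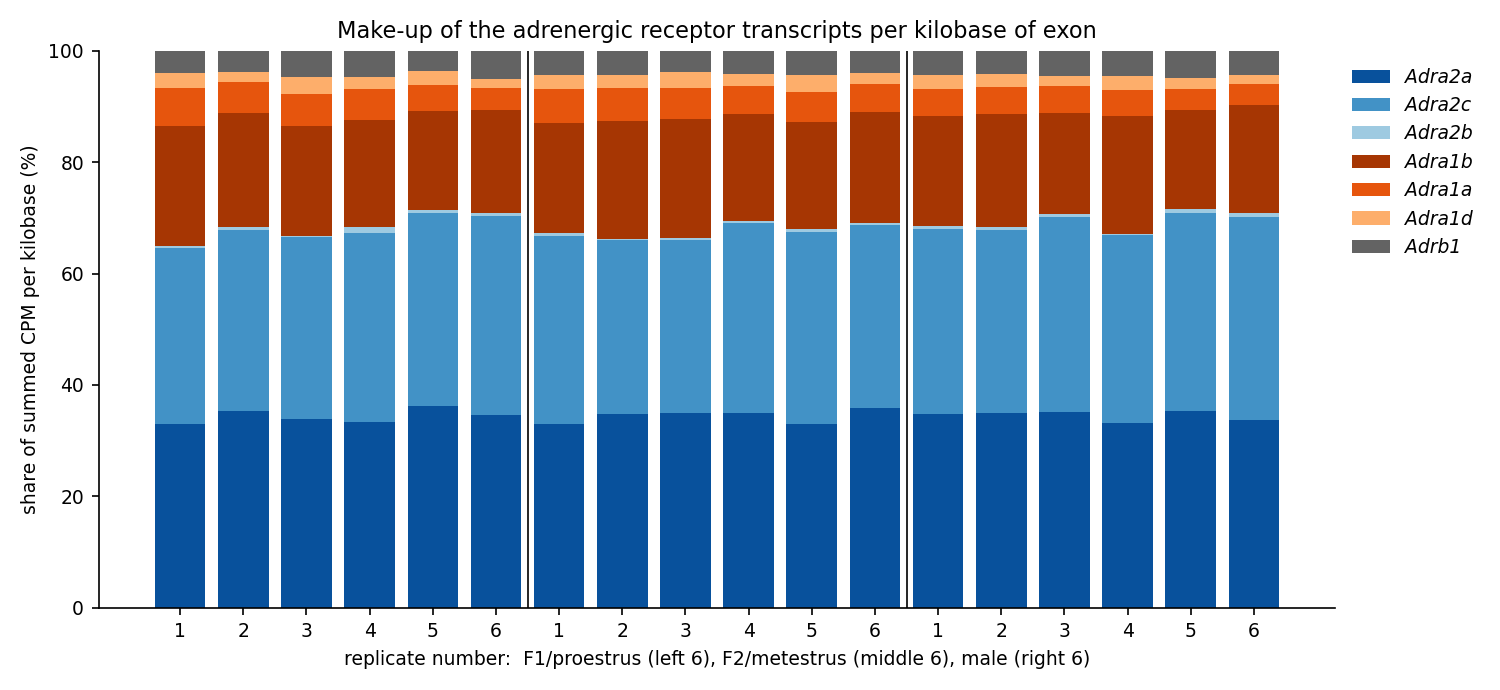
Share (%) of each adrenergic receptor gene in the CPM per kilobase of exon summed over the 7 genes analysed, in each of the 18 samples. F1/proestrus, F2/metestrus and males stand from left to right. In every sample the blue alpha2 genes make up between 65.0% and 71.6%.

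*Adra1a* encodes the alpha1A receptor. In F1/proestrus its level was 8.84 CPM in the lowest sample, 12.3 at the median and 14.6 in the highest (12.1 ± 1.97, SD, n = 6). F2/metestrus samples ran from 11.8 over a median of 12.9 to 14.4 CPM (13.1 ± 0.993). In males the values were 8.96, 11.3 and 12.1 CPM (10.9 ± 1.27). No male exceeded 12.1 CPM, and 4 of 6 males lay below every F2/metestrus sample, but the lowest value of all belonged to F1/proestrus 6.

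*Adra1b*, the gene of the alpha1B receptor, was the steadiest of the family. It had 16.5, 17.1 and 17.8 CPM as lowest, median and highest values in F1/proestrus (17.1 ± 0.534, n = 6). F2/metestrus gave 16.1, 18.4 and 20.5 CPM (18.3 ± 1.54), and males 16.7, 18.6 and 19.8 CPM (18.3 ± 1.28). The narrow F1/proestrus range lay wholly inside that of F2/metestrus. Over all 18 samples the coefficient of variation was 7.03%, of which counting error alone would give 2.38%.

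*Adra1d* codes for the alpha1D receptor, known best from vessels and the forebrain. Its 80 to 161 counts per sample corresponded to 0.810, 1.18 and 1.54 CPM in F1/proestrus (1.15 ± 0.282, n = 6). The values were 1.10, 1.27 and 1.48 CPM in F2/metestrus (1.28 ± 0.164) and 0.943, 1.18 and 1.32 CPM in males (1.15 ± 0.168). All 3 groups overlapped over most of their range. The spread over the 18 samples, a coefficient of variation of 17.5%, stands beside 9.30% from counting error.

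*Adra2a* encodes the alpha2A receptor, the main inhibitory autoreceptor of noradrenergic axons. Lowest, median and highest values were 39.1, 43.0 and 47.8 CPM in F1/proestrus (43.2 ± 2.87, n = 6). In F2/metestrus they were 39.7, 43.6 and 53.5 CPM (45.1 ± 5.24), and in males 41.8, 47.3 and 48.6 CPM (46.7 ± 2.51). Of the males, 5 of 6 lay within a narrow band from 46.7 to 48.6 CPM, and male 4 stood apart below it. The highest value of all was in F2/metestrus 4.

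*Adra2c*, the gene of the alpha2C receptor, which occurs on terminals of dorsal horn interneurons, followed the same samples. F1/proestrus gave 26.6, 30.3 and 32.7 CPM (30.0 ± 2.56, n = 6) and F2/metestrus 26.3, 30.5 and 37.0 CPM (30.8 ± 3.71). Males gave 30.3, 32.9 and 37.3 CPM (33.3 ± 2.35). As with *Adra2a*, male 4 was the lowest male and F2/metestrus 4 the highest female.

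*Adra2b* encodes the alpha2B receptor, known best from vascular smooth muscle. It had only 22 to 102 counts per sample, against 3 counts taken as the smallest signal the depth can show (0.0240 to 0.0407 CPM, for counting error only). F1/proestrus samples ran from 0.340 over 0.490 to 1.01 CPM (0.553 ± 0.236, n = 6), F2/metestrus from 0.308 over 0.493 to 0.558 CPM (0.468 ± 0.0987), and males from 0.298 over 0.645 to 0.859 CPM (0.633 ± 0.209). The highest value, in F1/proestrus 4, exceeded those of the other 5 samples of its group by a wide gap. The coefficient of variation, 34.8% over the 18 samples, was the largest of the 7 genes, and counting error alone would give 14.3%.

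*Adrb1*, the gene of the beta1 receptor, best known from the heart, had 3.20, 3.77 and 4.52 CPM in F1/proestrus (3.78 ± 0.574, n = 6). It had 3.35, 3.74 and 4.42 CPM in F2/metestrus (3.80 ± 0.371) and 3.95, 4.17 and 4.61 CPM in males (4.21 ± 0.239). No male fell into the lower part of the female range, but the groups overlapped from 3.95 CPM upwards.

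**Figure D2:**
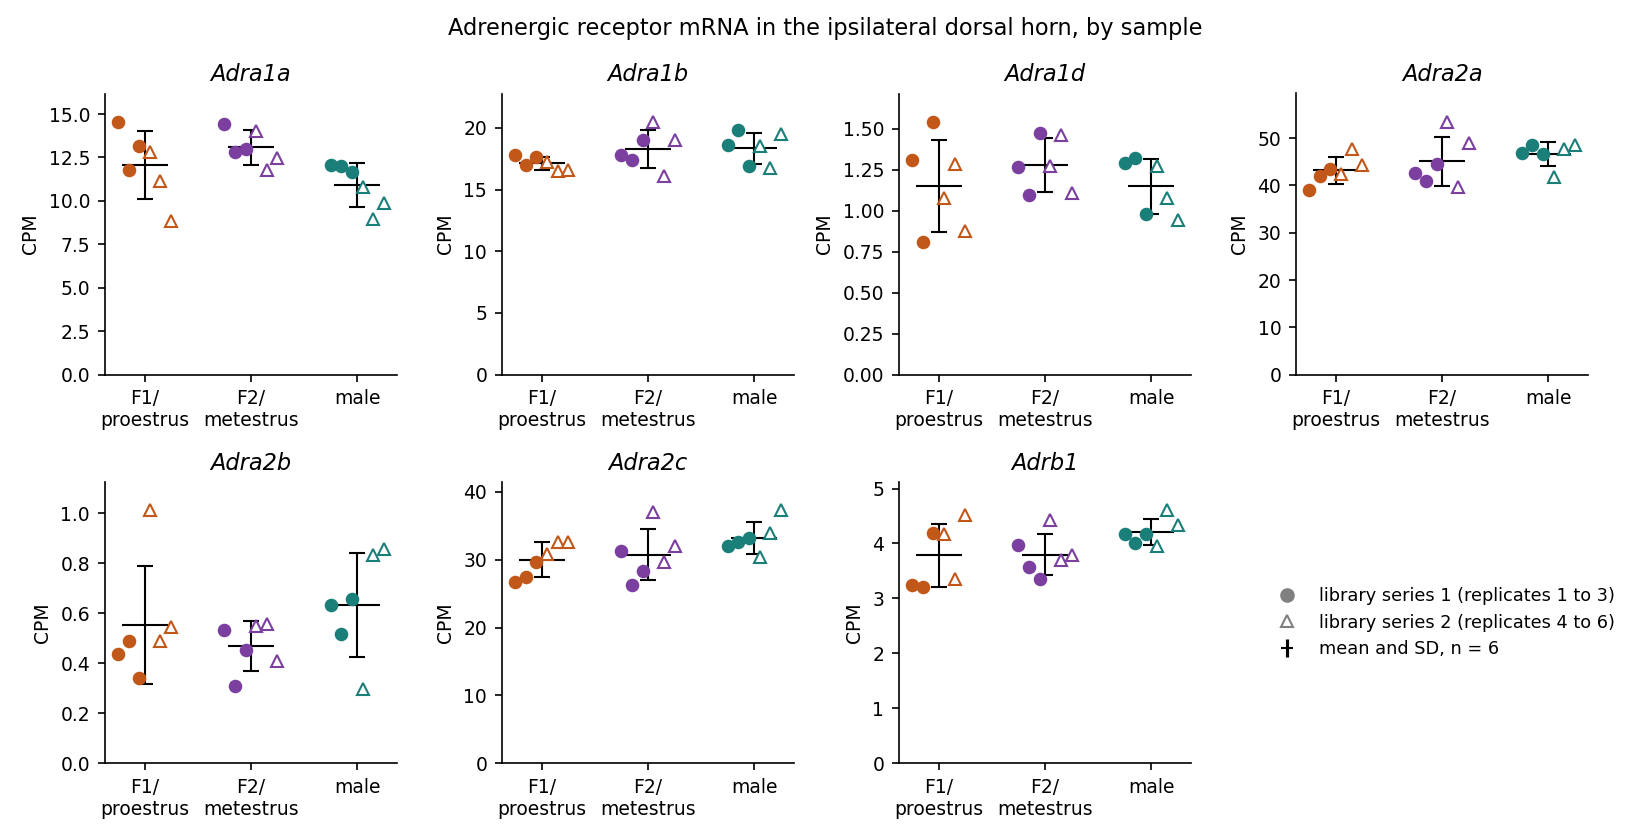
CPM of the 7 genes in every sample (linear axes from 0), by group, with circles for library series 1 and triangles for library series 2, and bars for the mean and SD (n = 6). The groups overlap for every gene, and males run lower for *Adra1a* (mean 10.9 CPM against 12.1 and 13.1) and higher for *Adra2c* (33.3 against 30.0 and 30.8).

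The first comparison asks whether the female groups, which differ in the length of the behavioral interphase and in estrus stage, differ in the DHSC. No adrenergic receptor gene passed the test between F2/metestrus and F1/proestrus, and each gene overlapped between the groups. In edgeR's quasi-likelihood test of the 12 females, 0 of 7 were called at an FDR of 5%, beside 0% of all 24042 genes tested, and adjusted p was 0.99998 for each (Benjamini-Hochberg). None of the 7 had an unadjusted p under 0.05, against 596 genes in all, and DESeq2 called 2 genes, neither of them a receptor of this family.

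The estimates bound the size of any difference between the female groups. *Adra2a* had a log2 fold change (F2/metestrus over F1/proestrus) of 0.06, with a 95% interval of the ratio from 0.933 to 1.17. For *Adra2c* it was 0.04, with the ratio between 0.909 and 1.16, and for *Adra1b* 0.09, between 0.971 and 1.17. These are the best bounded members, and none of the intervals leaves 0.909 to 1.17. *Adra1a* had 0.12 (ratio 0.931 to 1.26) and *Adrb1* 0.0063 (0.856 to 1.18). The rarer genes were bounded less well, *Adra1d* at 0.15 (0.873 to 1.41) and *Adra2b* at −0.24 (0.585 to 1.23). Without F1/proestrus 4, its highest sample, *Adra2b* stood at 0.02.

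Of the 7 log2 fold changes, 6 were above 0 and 1 below, with a median of 0.06 beside −0.00038 over all genes tested. Within library series 1 and 2 respectively, *Adra1a* gave 0.02 and 0.22, *Adra1b* 0.04 and 0.14, and *Adra1d* 0.06 and 0.24. *Adra2a* gave 0.04 and 0.08 and *Adra2c* 0.03 and 0.04. *Adra2b* gave 0.02 and −0.43 and *Adrb1* 0.03 and −0.02, so the sign of these 2 differed between the series. Without F1/proestrus 5 the log2 fold changes ran from −0.27 for *Adra2b* to 0.19 for *Adra1d*, with an adjusted p of 0.99987 for all 7.

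Between the sexes, males had less *Adra1a* and more *Adra2c*, *Adrb1* and *Adra2b* on average, but none of these differences passed the test over all genes and every gene overlapped between males and females. The 12 females of both groups formed a single condition, so this comparison shares its females with the first. Of the 7 genes, 0 were called at an FDR of 5%, where 0.197% of all genes tested were called (49 of 24862, 0.149% higher and 0.0483% lower in males). Only *Adra1a* had an unadjusted p under 0.05, as had 9.72% of all genes tested.

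*Adra1a* had 10.9 ± 1.27 CPM in males (n = 6) and 12.6 ± 1.58 in females (n = 12). Its log2 fold change was −0.20 (SE 0.0896), a ratio of 0.868 with a 95% interval from 0.763 to 0.988, with an adjusted p of 0.475 by edgeR's quasi-likelihood test. In library series 1 alone it was −0.17 and in series 2 alone −0.26, and against F1/proestrus and F2/metestrus alone −0.14 and −0.26. Males were thus lower under each of these settings without the call being reached. The summed markers of motor neurons ran from 17.7 to 115 CPM in males, from 25.4 to 135 in F1/proestrus and from 92.9 to 127 in F2/metestrus, with 0 of 5 called between the sexes, and their part in the *Adra1a* difference was not tested.

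*Adra2c* had 33.3 ± 2.35 CPM in males and 30.4 ± 3.07 in females. The log2 fold change was 0.13 (SE 0.0652), the ratio lay between 0.997 and 1.20, and the adjusted p was 0.520. *Adrb1* had 4.21 ± 0.239 and 3.79 ± 0.461 CPM, a log2 fold change of 0.15 (SE 0.0821), a ratio between 0.987 and 1.25 and an adjusted p of 0.552. Both intervals just include no difference, in a fit without a term for library series. *Adra2b* gave 0.32 (SE 0.221), with the widest interval of the ratio, from 0.908 to 1.72.

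The other members had estimates nearer to no difference between the sexes, with the interval of *Adra1d* the widest of these. *Adra2a* gave 0.08 (ratio 0.971 to 1.15), *Adra1b* 0.05 (0.956 to 1.12) and *Adra1d* −0.08 (0.779 to 1.15). In library series 1 alone *Adra2a* was at 0.16 and *Adra2c* at 0.19, while in series 2 alone they were at −0.0010 and 0.07. *Adrb1* gave 0.19 and 0.11 and *Adra2b* 0.48 and 0.18 in the same order. A test of the difference between the series, as an interaction of sex and library series chosen after the data were seen, gave adjusted p from 0.970 to 0.998 for the 7 genes.

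Across 203 alternative fits of single members between the sexes, the smallest adjusted p was 0.155, for *Adra1a* with the replicate number as a block. Without F1/proestrus 5, *Adra1a* was at −0.22 with an adjusted p of 0.444 and *Adra2c* at 0.14 with 0.521. Summed markers of dorsal horn neurons ran from 672 to 961 CPM in males, from 498 to 769 in F1/proestrus and from 508 to 631 in F2/metestrus, with 1 of 9 markers called higher in males. Markers of Schwann cells summed to between 863 and 2136 CPM in males and between 578 and 1168 in females, with 1 of 4 called higher. Markers of neutrophils summed to between 4.29 and 21.7 CPM in males and between 1.57 and 7.74 in females, again with 1 of 4 called higher. Their part in the receptor values was not tested.

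**Figure D3:**
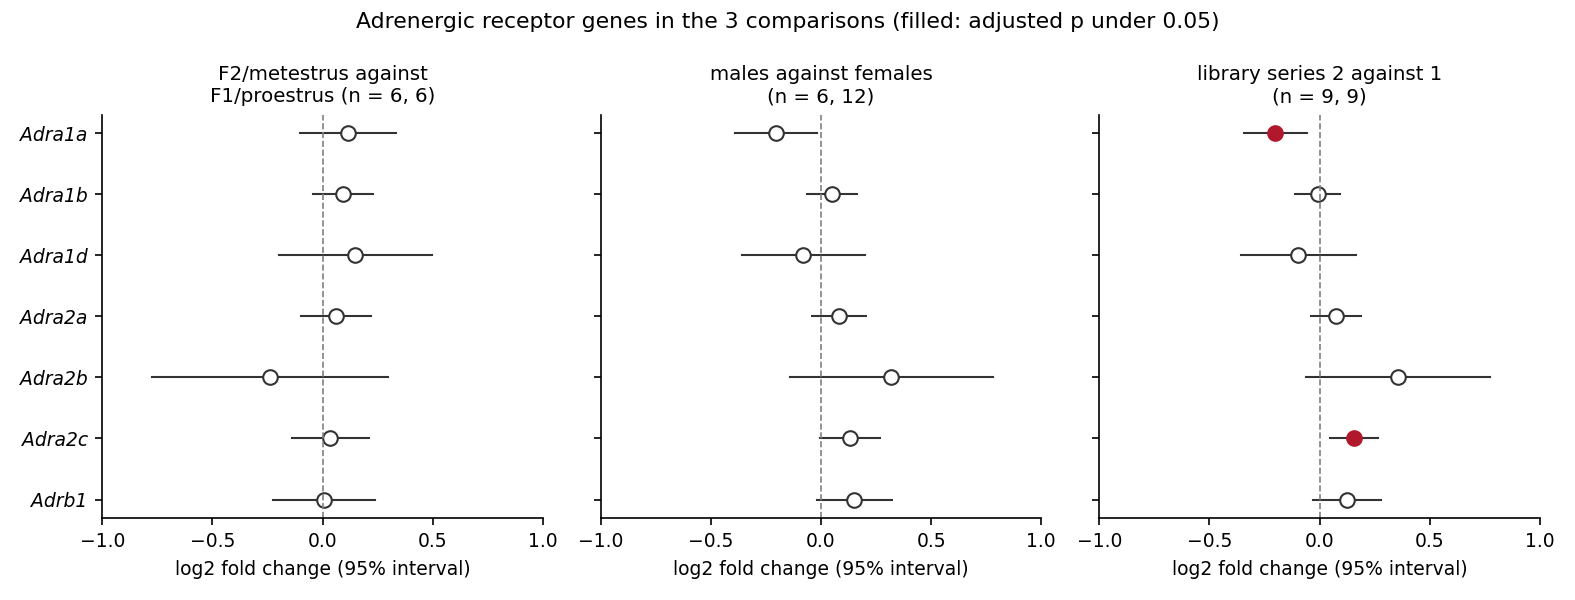
Log2 fold changes with 95% intervals of the 7 genes in edgeR's quasi-likelihood test, between the female groups, between the sexes and between the library series, with filled points for an adjusted p under 0.05. In the first and second panel no point is filled, and in the third *Adra1a* (−0.20) and *Adra2c* (0.16) are.

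The library series, which hold equal numbers of each group, were compared to see how far the members moved with a feature of the samples that the design did not name. *Adra1a* was lower and *Adra2c* higher in the second series, and the other 5 genes did not pass the test. With group in the model, 2 of 7 genes were called where 25.9% of all genes tested were (6751 of 26075, 13.7% higher and 12.2% lower). That share of the 7 is near the background.

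*Adra1a* had 12.8 ± 1.08 CPM in series 1 and 11.2 ± 1.77 in series 2 (n = 9 each). Its log2 fold change was −0.20 (SE 0.0688) with an adjusted p of 0.0365 by edgeR's quasi-likelihood test. The lowest value in series 1 was 11.7 CPM, and 5 of the 9 values in series 2 lay below it. The call was lost in 11 of the 18 fits that each left out a single sample, F1/proestrus 5 among them (adjusted p = 0.0525).

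*Adra2c* rose from 29.7 ± 2.67 to 33.0 ± 2.72 CPM, a log2 fold change of 0.16 (SE 0.0520) with an adjusted p of 0.0313. Leaving out single samples ended this call in 5 of 18 fits, with adjusted p up to 0.0684, and keeping genes with low counts ended it as well (adjusted p = 0.0731). *Adra2b* had 0.485 CPM in series 1 and 0.618 in series 2, a log2 fold change of 0.36 (SE 0.201) with an adjusted p of 0.211, and was called only without male 4 (adjusted p = 0.0430). *Adrb1* gave 0.13 and *Adra2a* 0.08, *Adra1d* −0.10 and *Adra1b* −0.0090, with adjusted p from 0.234 to 0.921. Of the dorsal horn neuron markers, 6 of 9 were higher in series 2, and 2 of 3 markers of oligodendrocyte precursors were lower. Microglia had 3 of 5 markers higher and 1 lower, endothelium 1 of 5 higher and 2 lower, Schwann cells 1 of 4 and sensory ganglion neurons 1 of 7 higher, and mural cells 1 of 6 lower. None was called among the tested markers of noradrenergic neurons, motor neurons, astrocytes, oligodendrocytes, meningeal fibroblasts, neutrophils and red blood cells, and the summed level of oligodendrocyte precursor markers ran from 153 to 170 CPM in series 1 and from 113 to 151 in series 2. Their part in the receptor values was not tested.

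*Adra2a* and *Adra2c* rose and fell together from sample to sample. With the mean of each library series subtracted, Pearson's r of their log2 CPM over the 18 samples was 0.84, the highest of the 21 pairs among the 7 genes. The next pairs were *Adra2c* with *Adrb1* (0.69), *Adra1b* with *Adra2a* (0.59) and *Adra1a* with *Adra1d* (0.50). *Adra1a* had r of −0.06 with *Adra2a*, −0.18 with *Adra2c* and −0.29 with *Adrb1*. Without F1/proestrus 5, *Adra2a* with *Adra2c* gave 0.85, *Adra2c* with *Adrb1* 0.77, *Adra1b* with *Adra2a* 0.66 and *Adra1a* with *Adra1d* 0.51 over 17 samples. These values are descriptions over samples that share libraries, depth and normalization between genes, and no test was made of them.

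**Figure D4:**
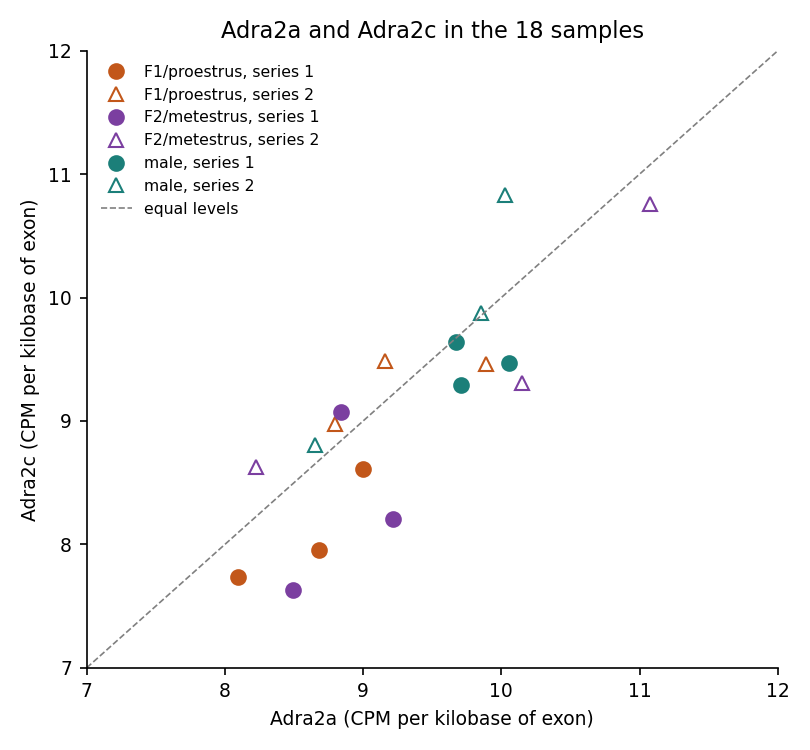
*Adra2a* (horizontal) against *Adra2c* (vertical), both in CPM per kilobase of exon (neither axis starts at 0), in the 18 samples, by group and library series, with the line of equal levels. The points run along the line, with *Adra2a* the higher of the pair in 11 of 18 samples.

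Genes whose pattern was most like that of each receptor were found among 14210 protein-coding genes with a mean of at least 1 CPM, by the same centred r over the 18 samples. For *Adra2a* they were *Cux1* (0.90), *Fads2* (0.89) and *Fkbp8* (0.89). For *Adra2c* they were *Fkbp8* again (0.90), *Gm12184* (0.89) and *Rpl29* (0.89). *Fkbp8* was the only gene shared between the lists of these 7 receptors. The lists were *Patj* (0.91), *Pcyt1a* (0.89) and *Pacsin2* (0.88) for *Adra1a* and *Hmga1b* (0.85), *Syp* (0.84) and *Flywch1* (0.83) for *Adra1b*. *Adrb1* was most like *Glul* (0.88), the glutamine synthetase gene of astrocytes, followed by *Gm27021* and *Mrpl52* (0.86 each). The rare receptors had lower values of r, *Med9* (0.82), *Rsg1* (0.80) and *AI467606* (0.79) for *Adra2b*, and *Emc9* (0.77) and *Cend1* (0.75) for *Adra1d*, whose next gene is not reported here. Without F1/proestrus 5, r of the named genes lay between 0.76 (*Emc9* with *Adra1d*) and 0.92 (*Patj* with *Adra1a*). Each is among the highest of many correlations, so that the values are descriptions only.

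The cell bodies of the noradrenergic neurons that supply the dorsal horn lie in the brainstem, and of the 4 genes reported here that mark them 2 had few or no counts. *Dbh*, which makes noradrenaline from dopamine, had 0 to 10 counts per sample, and *Slc6a2*, the noradrenaline transporter, had 0 to 22. *Phox2a*, a transcription factor gene, had 15 to 65 counts (0.203 to 0.723 CPM). *Pnmt*, the enzyme that makes adrenaline, had 0 to 6. *Th*, the rate-limiting enzyme of catecholamine synthesis, was measured at 19.3 ± 7.44 CPM (SD, n = 18), from 11.7 to 44.5, with the highest value in F1/proestrus 5. Without that sample it had 17.8 ± 4.10 CPM (n = 17), with a highest value of 25.5. *Ddc*, the next enzyme, had 16.4 ± 2.43 CPM and *Slc18a2*, the vesicular monoamine transporter, 3.94 ± 0.922 CPM. Of the genes of uptake and breakdown, *Maoa* had 55.1 ± 3.66, *Slc29a4* 42.2 ± 6.54, *Maob* 35.6 ± 2.24 and *Slc22a3* 1.09 ± 0.373 CPM. In mean CPM per kilobase of exon, *Slc29a4* (14.8), *Maoa* (13.2) and *Maob* (12.8) were above *Th* (8.16), *Ddc* (3.67) and *Slc18a2* (0.754). *Slc22a3* (0.242) was below all of these.

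Of 47 genes of noradrenaline handling and receptor signaling, 44 were tested in each comparison, none of them a receptor. Between the female groups 0 of 44 were called by edgeR, the median log2 fold change was −0.0081, and 2 genes had an unadjusted p under 0.05, as had 2.48% of all genes tested. Between males and females 0 of 44 were called as well, where 0.197% of all genes were, with a median of 0.03 and 6 genes with an unadjusted p under 0.05, beside 9.72% of all genes. Between the library series 16 of 44 were called (36.4%, beside 25.9% of all genes tested), 6 higher and 10 lower in series 2. These 16 all encode parts of receptor signaling or of its desensitization, the roles that hold most of the tested genes. Called genes numbered 0 of 3 tested for synthesis and packaging and 0 of 4 for uptake and breakdown. Without F1/proestrus 5 the counts were 0 between the female groups, 0 between the sexes and 17 of 45 between the series, which were the same 16 genes and *Ddc*.

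Of the Gq side, through which alpha1 receptors act, *Gna11* was higher in series 2 (log2 fold change 0.13) while *Gnaq* (−0.13), *Plcb1* (−0.14) and *Plcb4* (−0.19) were lower. Of the Gi/o side of alpha2 receptors, *Gnai2* (0.22) and *Gnaz* (0.19) were higher. Of 6 channel genes that Gi/o-coupled receptors act on, 3 were called, all lower, the calcium channel genes *Cacna1b* (−0.56) and *Cacna1a* (−0.25) and the potassium channel gene *Kcnj3* (−0.21). The potassium channel genes *Kcnj9* (−0.14), *Kcnj6* (−0.02) and *Kcnj5* (−0.01) did not pass the test. Of the Gs side, *Gnas* was higher (0.21), and the adenylyl cyclase genes *Adcy6* (−0.36) and *Adcy9* (−0.27) were lower. Among genes of desensitization, *Arrb2* (0.26) and *Rgs2* (0.24) were higher and *Arrb1* (−0.35) and *Grk3* (−0.30) lower. The *Adra1a* and *Adra2c* differences between the series thus lay within the span of these changes.

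**Figure D5:**
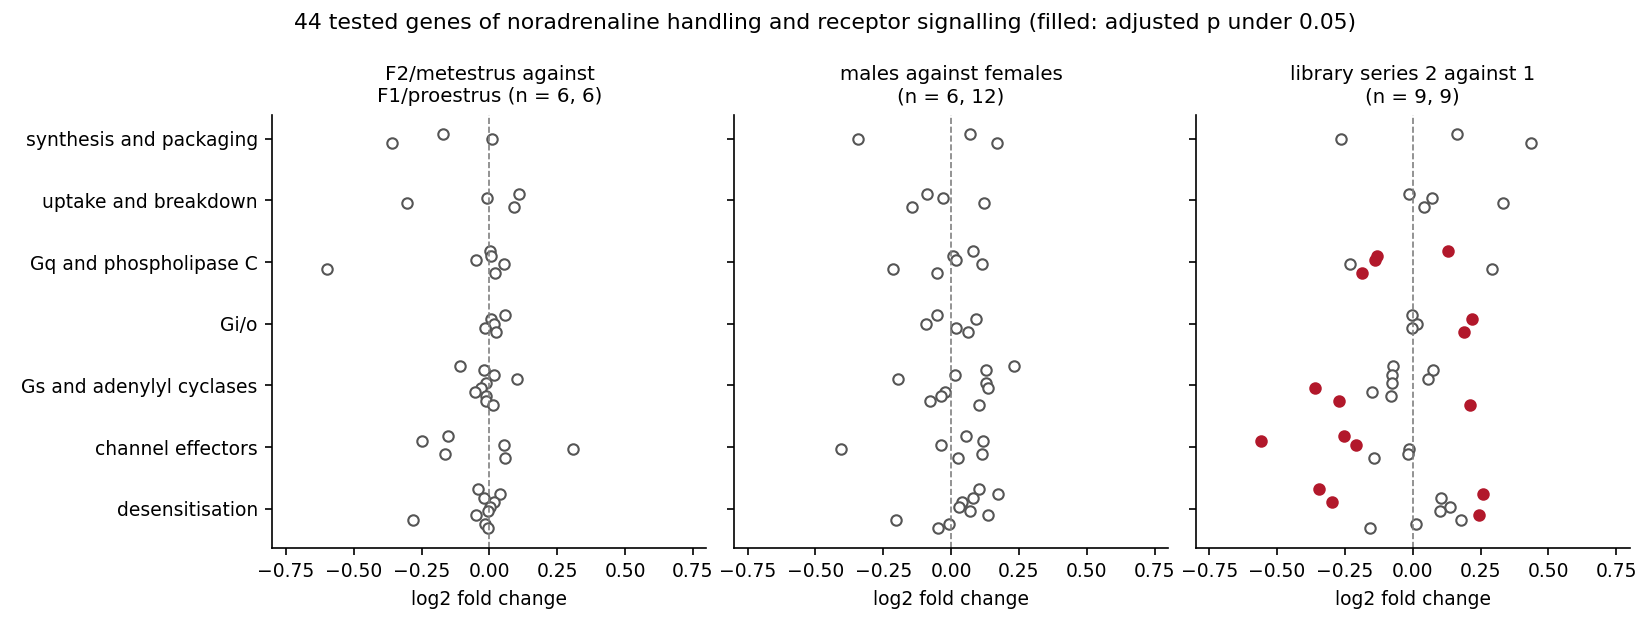
Log2 fold changes of the 44 tested genes of noradrenaline handling and receptor signaling, by role, in the same 3 comparisons, with filled points for an adjusted p under 0.05. No point is filled between the female groups or between the sexes, and 16 are between the library series.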

How the data were processed

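The authors deposited raw counts for 55573 Ensembl genes in 18 samples, mapped uniquely to mm10 with Subread and counted on exons with featureCounts. Libraries were made with SMART-Seq and Nextera XT per the labels, but with TruSeq per the methods, and the strand setting is not stated. A second deposited table holds DESeq2 results of the authors, from which gene symbols alone were used.

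Genes were filtered with filterByExpr (minimum count 10, minimum total 15), scaled with TMM and tested, two-sided, with edgeR 4.0.16 (quasi-likelihood, Benjamini-Hochberg, FDR of 5%) in R 4.3.3, over all genes. The fits were F2/metestrus against F1/proestrus (12 females), males against females (18 samples) and library series 2 against 1 with group as covariate. DESeq2 1.42.0, limma voom 3.58.1, other filters and scaling, a replicate block, each series alone and leaving out each sample were alternatives. The edgeR, voom and DESeq2 fits of the 3 comparisons were checked on simulated data, with changes larger than those estimated for the receptors. That check does not measure the power for small differences. CPM are counts scaled to a common total after TMM, and per-kilobase values use GENCODE vM21 exon length. No 2 samples of the same group agreed within sampling noise (smallest chi-square per degree of freedom 15.4). Samples of different groups were not compared in this way.

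The receptors, gene lists and comparisons were chosen with earlier results of these data known. Named genes were the 7 receptors, the called genes of the signaling list, its synthesis and uptake genes, and the 3 genes most correlated with each receptor. Of the signaling list 1 gene, of the markers 1 and of the correlated genes 1 are not reported here. The methods call the samples biological replicates, and p-values measure the spread between them. The main fits did not pair samples by replicate number. Whether the numbers pair them was not settled: of 18 pairs with the same number, 9 had a correlation over 0.1 (−0.10 to 0.23).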

Additional observations from a re-analysis of the deposited data

Results flagged for a closer look

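In each of 21 groups of 6 values (7 genes in 3 groups), the gap of the highest and the lowest sample to its neighbor was set against the range of the group, and chance flags about 1 in 20 such groups. *Adra2a* in male 4 stood at 41.8 CPM, below the other 5 males, the next of which had 46.7. *Adra2b* in F1/proestrus 4 stood at 1.01 CPM, from 92 counts, above the other 5 samples of its group, the next of which had 0.547.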

How the results depend on the processing

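No receptor gene was called between the female groups or between the sexes under any alternative run, with a smallest adjusted p of 0.864 over 147 fits and 0.155 over 203. The sign changed for *Adra2b* between the female groups in library series 1 alone (0.020), for *Adrb1* with voom (−0.014) and in series 2 alone (−0.016), for *Adra2a* between the sexes in series 2 alone (−0.0010), and for *Adra1b* between the series with voom (0.0097). Leaving out each sample gave −0.35 to 0.018 for *Adra2b*, −0.025 to 0.077 for *Adra2c*, −0.042 to 0.064 for *Adrb1*, 0.041 to 0.18 for *Adra1a*, 0.057 to 0.13 for *Adra1b*, 0.067 to 0.25 for *Adra1d* and 0.0050 to 0.097 for *Adra2a* between the female groups. Between the sexes it gave 0.020 to 0.071 for *Adra1b*, −0.13 to −0.040 for *Adra1d*, 0.20 to 0.45 for *Adra2b* and 0.084 to 0.16 for *Adra2c*, and −0.033 to 0.026 for *Adra1b*, −0.15 to −0.034 for *Adra1d*, 0.045 to 0.11 for *Adra2a* and 0.22 to 0.47 for *Adra2b* between the series. Between the series, *Adra1a* ran from −0.23 to −0.15 (adjusted p 0.0187 to 0.0850), *Adra2c* from 0.13 to 0.19 (0.00823 to 0.0684).

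Over all genes, DESeq2 called 2 between the female groups, where edgeR called 0. Between the sexes edgeR called 49, DESeq2 159, a filter of at least 10 counts in every sample 31, library series as covariate 134, series 1 and 2 alone 16 and 13, and males against F1/proestrus or F2/metestrus alone 23 and 32. Leaving out each sample gave 25 to 77, namely 25 without male 5, 30 without male 4 and 77 without F1/proestrus 5, and 5891 to 6922 between the series. Whether replicate numbers pair the samples was not settled (10 of 36 best matches had the same number). The replicate block gave 148 calls between the sexes and 0 between the female groups, none a receptor. With coding length the shares were 10.9% (*Adra1a*), 14.7% (*Adra1b*), 0.897% (*Adra1d*), 40.7% (*Adra2a*), 28.8% (*Adra2c*) and 3.55% (*Adrb1*). The causes were not tested. Counting error limits *Adra2b* and *Adra1d* most.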
